A study of Homo sapiens with 6 samples.

Results

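The stress-activated kinases of the p38 and JNK modules were followed across BT474 cells with and without the long noncoding RNA NR2F1-AS1. The members were 10 genes fixed by name: the p38 kinases MAPK14, MAPK11 and MAPK13, the JNK kinases MAPK8 and MAPK9, the upstream kinases MAP2K3, MAP2K6, MAP2K4 and MAP2K7, and the p38 substrate kinase MAPKAPK2. Every array probe whose gene name equalled a member was taken, which gave 18 of 58201 probes and 10 of 43317 gene names. Each probe was kept apart, and all 18 were well above background on all 6 arrays.

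The study asked what NR2F1-AS1 does in ER-positive breast cancer, and RNA was measured on one-color Agilent arrays, 2 for each of 3 groups. BT474 is a human breast cancer cell line that is positive for ER and HER2. Control cells carried an empty pcDNA3.1 vector, BT474-Var1 cells were transfected with NR2F1-AS1 variant 1, the long transcript, and BT474-Var4 cells with variant 4, the short transcript. The variants were carried by different plasmids, pcDNA3.1/Hygro(+) for variant 1 and pcDNA3.1-P2A-eGFP for variant 4, and the labels name only pcDNA3.1 for Control, so each variant's plasmid cannot be told apart from its insert. The transfected cells were stable lines that had survived antibiotic selection as colonies. Whether each line was 1 clone, how long it had been cultured before the arrays, and whether the 2 arrays of a group came from separate cultures was not stated, so the p-values measure the spread between these arrays, which may be technical.

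MAPK modules are relays of kinases in which a MAP3K phosphorylates a MAP2K, which in turn phosphorylates a MAPK. MAP2K3 and MAP2K6 feed the p38 kinases, MAP2K7 feeds the JNKs, and MAP2K4 can feed both, while dual-specificity phosphatases switch the MAPKs off and scaffold proteins hold the relay together. The kinases are controlled mainly by phosphorylation, which an RNA measurement does not read, and in breast cancer p38 has been discussed in relation to the dormancy of disseminated tumor cells.

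Each level is a log2 intensity relative to the 75th percentile of its array, so that 0 is that percentile. A probe was called when limma's moderated test gave an adjusted p under 0.05 over the 31858 tested probes. Levels of different probes are not compared, because brightness depends on the probe. The array has 4 probes of NR2F1-AS1, which the files tie to RefSeq transcripts and not to variant 1 or 4, so they check that the RNA was raised and not which variant was carried. The probes of 1 transcript, 2 in number, were high in BT474-Var1 cells alone, A_19_P00320140 at -0.42 and -0.51 against -6.37 and -6.62 in Control. The probe of another, A_24_P51080, was high in BT474-Var4 cells alone, at 1.67 and 1.50 against -6.42 and -4.25. That of another again, A_22_P00006111, was higher in both populations (log2 change 3.36, adjusted p = 0.0134, and 7.98, adjusted p = 0.0041). Between 47.6% and 57.5% of probes were well above background per array, replicates correlated at r = 0.993 to 0.996 across probes, and the 10 markers of luminal breast cancer cells were well above background on all 6 arrays. Of 11 markers of other cell types with a probe, PTPRC, COL1A1, VWF and CDH5 also were, whereas COL1A2, COL3A1 and KRT5 were so on 0 arrays. CD3E was so on 5 arrays, KRT14 on 4, and PECAM1 and TP63 on 1 each. All 6 arrays lay on 1 slide, with the BT474-Var1 arrays in a slide column of their own, so that column and BT474-Var1 cannot be told apart.

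The 60-base probes of 3 members are shown, those of MAPK13 and MAPK9 because the results below turn on them, and that of MAPK8 because it lies over a motif of the kinase domain. The files place them on hg19 (GRCh37): MAPK8 on chr10:49628233-49628292, plus strand, MAPK13 on chr6:36106750-36106809, plus strand, and MAPK9 on chr5:179669667-179669726, minus strand. The capitals in the MAPK8 probe mark the codons of Asp-Phe-Gly, the motif that opens the activation segment of the kinase domain, in a reading frame with no stop codon within the probe.
MAPK8 A_33_P3250289: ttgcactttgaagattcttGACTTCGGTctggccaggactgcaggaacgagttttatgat
MAPK13 A_23_P145376: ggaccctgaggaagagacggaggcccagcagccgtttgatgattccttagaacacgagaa
MAPK9 A_23_P167692: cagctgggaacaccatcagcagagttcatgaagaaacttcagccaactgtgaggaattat
Among 17 probes searched, 1 held these codons, at bases 20 to 28 of the MAPK8 probe. The longest run of bases shared by any 2 of these probes, over 136 pairs, was 10. An annotation of hg19 with exons and UTRs was not used here, so exon and UTR positions are not given.

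In BT474-Var1 cells, both probes of MAPK13 and of MAPK9, the single probe of MAPKAPK2 and 1 of 3 probes of MAP2K3 fell against Control, by 1.23-fold to 2.16-fold, while 1 of 2 probes of MAPK11 and 1 of 3 of MAPK8 rose. In BT474-Var4 cells, a MAPK11 probe rose 1.63-fold, a MAPK9 probe fell 1.33-fold, and the other 16 probes were not called. Of the 18 probes, 2 were higher and 6 lower in BT474-Var1 than in Control, where 14.1% of all tested probes were higher and 20.3% lower. In BT474-Var4 against Control, 1 was higher and 1 lower, against 9.87% and 14.3% of all tested probes. BT474-Var4 against BT474-Var1 gave 6 higher and 1 lower, against 20.4% and 20.8%. The median log2 change of the 18 probes was -0.06, 0.01 and 0.15 in these comparisons, and that of all tested probes -0.04, -0.08 and -0.03. Both comparisons with Control use the same 2 Control arrays and are not independent. In these bulk RNA samples a lower level in every cell and a loss in some cells cannot be told apart.

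**Figure D1:**
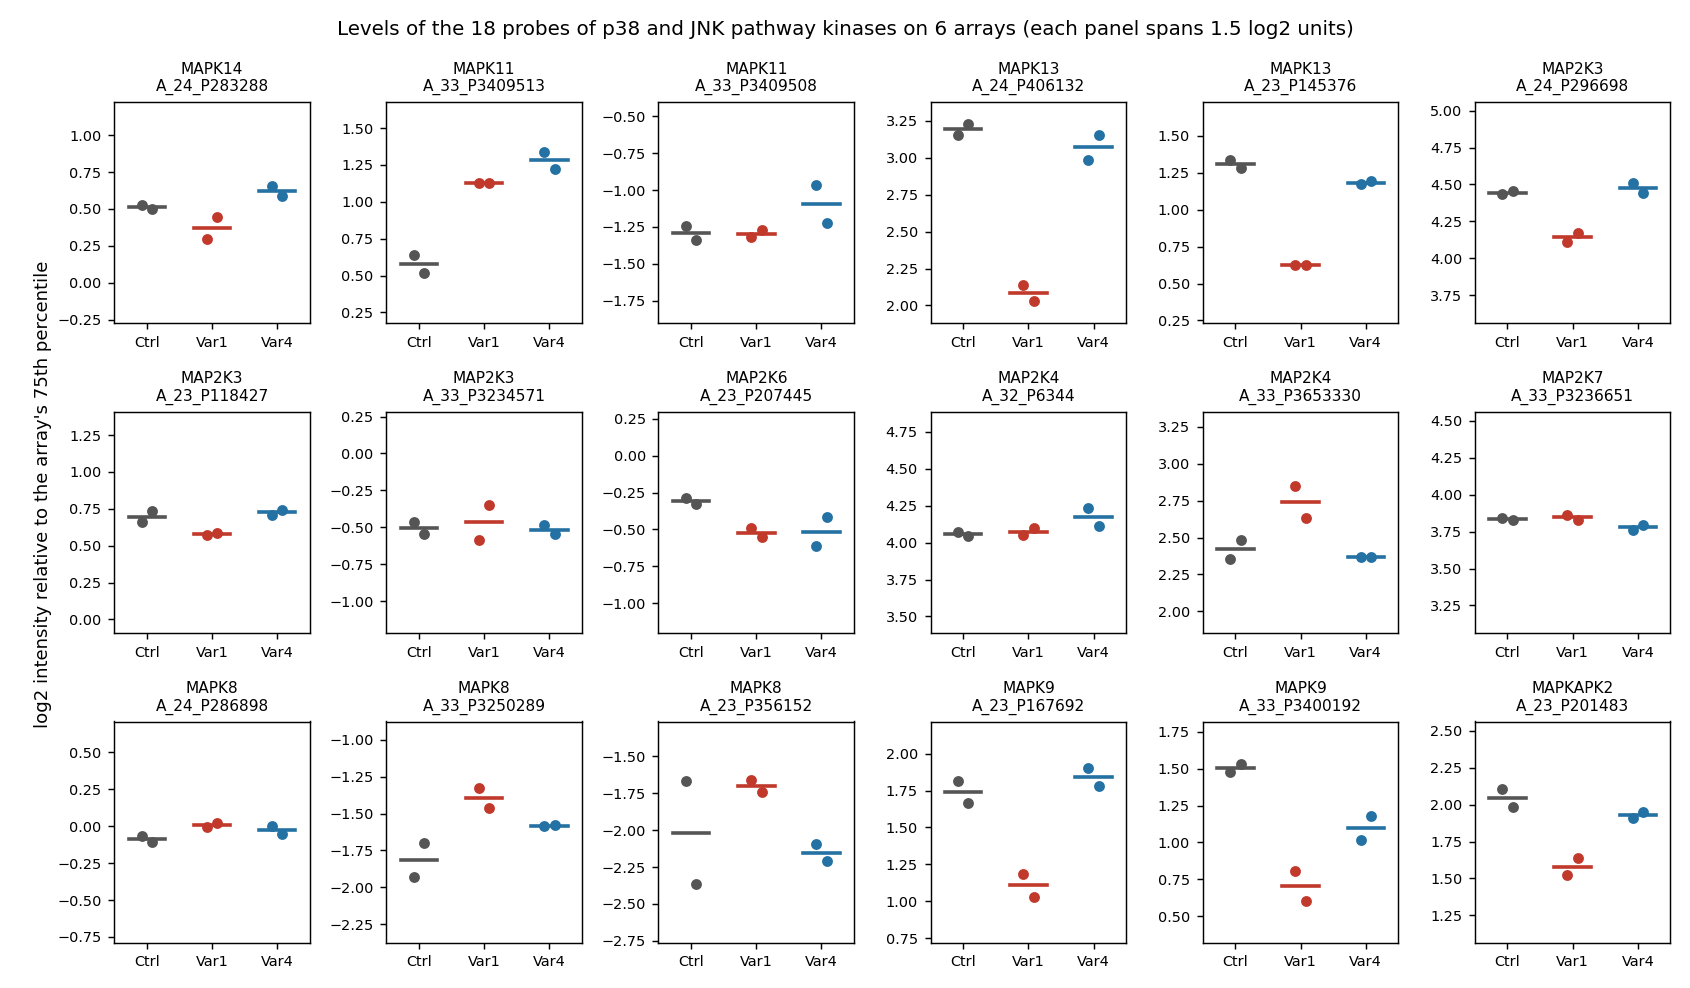
Each panel plots 1 of the 18 probes, with the level (log2 intensity relative to the array's 75th percentile) on the y axis and the 2 arrays of Control, BT474-Var1 and BT474-Var4 cells as points, the line marking their mean; every panel spans 1.5 log2 units. Both MAPK13 probes, MAPK9 A_23_P167692 and MAPKAPK2 show both BT474-Var1 points below all 4 other points, and MAPK11 A_33_P3409513 shows both Control points below the rest.

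MAPK13, which encodes p38 delta, had the largest change among the members, a fall in BT474-Var1 cells. Its probe A_24_P406132 (chr6:36107315-36107374, plus strand) read 3.16 and 3.23 in Control, 2.14 and 2.03 in BT474-Var1 cells, and 2.98 and 3.16 in BT474-Var4 cells. Both BT474-Var1 arrays lay about 1 log2 unit under the other 4, and the higher BT474-Var4 array met the lower Control array at 3.16. The level was 2.16-fold lower in BT474-Var1 than in Control (log2 change -1.11, SE 0.09, adjusted p = 0.00410), the 1 member probe past 2-fold in any comparison. BT474-Var4 did not differ from Control past the threshold (log2 change -0.12, 95% interval -0.35 to 0.10, adjusted p = 0.347) and stood 1.98-fold above BT474-Var1 (log2 change 0.99, SE 0.09, adjusted p = 0.00292). That last test is the test of the difference between the variants, so the fall in BT474-Var1 cells was larger than in BT474-Var4 cells.

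The other MAPK13 probe, A_23_P145376, whose sequence is given above, read 1.34 and 1.28 in Control, 0.62 and 0.62 in BT474-Var1 cells, and 1.17 and 1.19 in BT474-Var4 cells. The 3 groups did not overlap, with BT474-Var1 at the bottom. It was 1.61-fold lower in BT474-Var1 than in Control (log2 change -0.69, SE 0.05, adjusted p = 0.00385) and 1.47-fold higher in BT474-Var4 cells than in BT474-Var1 (log2 change 0.56, SE 0.05, adjusted p = 0.00316). Its change in BT474-Var4 against Control was -0.13 on the log2 scale (95% interval -0.26 to 0.00, adjusted p = 0.134). The 2 MAPK13 probes thus had the same direction in each comparison.

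MAPK11, which encodes p38 beta, went the other way on 1 of its 2 probes. A_33_P3409513 (chr22:50702278-50702337, minus strand) read 0.64 and 0.52 in Control, 1.13 and 1.13 in BT474-Var1 cells, and 1.34 and 1.22 in BT474-Var4 cells. All 4 arrays of the transfected variants lay above both Control arrays. The rise was 1.47-fold in BT474-Var1 (log2 change 0.55, SE 0.07, adjusted p = 0.00876). In BT474-Var4 cells it was 1.63-fold (log2 change 0.70, SE 0.07, adjusted p = 0.00793). The variants differed by 0.15 (95% interval -0.04 to 0.34, adjusted p = 0.156). With no filter on dim probes both rises missed the threshold (adjusted p = 0.0572 in BT474-Var1 and 0.0611 in BT474-Var4). Without Control replicate A or B the adjusted p was 0.0509 and 0.0508 for the rise in BT474-Var1 cells and 0.0561 and 0.0525 for that in BT474-Var4 cells, and without BT474-Var1 replicate A the former was 0.0513.

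The other MAPK11 probe, A_33_P3409508 (chr22:50703225-50703284, minus strand), was not called. It read -1.24 and -1.34 in Control, -1.32 and -1.27 in BT474-Var1 cells, and -0.96 and -1.22 in BT474-Var4 cells. On this probe Control and BT474-Var1 overlapped, and both BT474-Var4 arrays lay above both Control arrays. Its changes were 0.00 (95% interval -0.28 to 0.27, adjusted p = 0.978) and 0.20 (95% interval -0.08 to 0.48, adjusted p = 0.226). Between the probes the change differed by 0.56 in the BT474-Var1 population and by 0.50 in BT474-Var4 cells, and with 2 arrays against 2 an exact permutation test of such a difference cannot go below p = 0.333.

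MAPK14, which encodes p38 alpha, the most widely expressed p38 kinase, was not called in any of the 3 comparisons. Its probe read 0.53 and 0.50 in Control, 0.30 and 0.45 in BT474-Var1 cells, and 0.65 and 0.59 in BT474-Var4 cells. The groups did not overlap, and they were ordered BT474-Var1, Control, BT474-Var4, with intervals of -0.33 to 0.05 and -0.08 to 0.30 for the log2 changes of the variants against Control. The step between the variants was 1.19-fold (log2 change 0.25, 95% interval 0.06 to 0.44, adjusted p = 0.0504), just short of a call. MAPK14 and MAPK13 are neighboring protein-coding genes on chromosome 6 in RefSeq's order. MAPK12, which encodes p38 gamma and is no member, neighbors MAPK11 on chromosome 22 and was not called either. Its log2 changes were -0.29 in BT474-Var1 cells (adjusted p = 0.109) and 0.03 in the BT474-Var4 population (adjusted p = 0.86). Between the variants its adjusted p was 0.0774. With quantile normalization MAPK12 was called in BT474-Var1 against Control (log2 change -0.44, adjusted p = 0.0447) and between the variants (log2 change 0.52, adjusted p = 0.0262).

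MAPK9, which encodes JNK2, fell in BT474-Var1 cells on both of its probes. The probe A_23_P167692, given above, matches several JNK2 transcripts and read 1.81 and 1.66 in Control, 1.18 and 1.03 in BT474-Var1 cells, and 1.90 and 1.78 in BT474-Var4 cells. The BT474-Var1 arrays lay below all others, and Control and BT474-Var4 overlapped. It was 1.55-fold lower in BT474-Var1 than in Control (log2 change -0.63, SE 0.09, adjusted p = 0.0117) and 1.66-fold higher in BT474-Var4 cells than in BT474-Var1 (log2 change 0.73, SE 0.09, adjusted p = 0.00681). Its change in BT474-Var4 against Control was 0.10 (95% interval -0.15 to 0.35, adjusted p = 0.472). With no filter on dim probes the fall in BT474-Var1 cells missed the threshold (adjusted p = 0.062). The fall against Control was lost without Control replicate A (adjusted p = 0.0744) or BT474-Var1 replicate B (adjusted p = 0.0529), while the difference between the variants was kept in all alternative settings.

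The second MAPK9 probe, A_33_P3400192 (chr5:179673231-179673290, minus strand), is matched in the array files to the JNK2-g transcript alone. It read 1.48 and 1.53 in Control, 0.81 and 0.61 in BT474-Var1 cells, and 1.02 and 1.18 in BT474-Var4 cells. Here both variants lay below Control without overlap, and BT474-Var1 lay lowest. The fall was 1.74-fold in BT474-Var1 (log2 change -0.80, SE 0.10, adjusted p = 0.00785) and 1.33-fold in BT474-Var4 cells (log2 change -0.41, SE 0.10, adjusted p = 0.0479), and BT474-Var4 stood 1.31-fold above BT474-Var1 (log2 change 0.39, adjusted p = 0.0365). In BT474-Var4 cells, then, the JNK2-g probe was called lower and the probe of several JNK2 transcripts was not, a difference of -0.51 between the probes' log2 changes, against -0.17 in BT474-Var1 cells. The exact permutation p of each difference was 0.333, the smallest this design allows. The fall in BT474-Var1 cells was lost without Control replicate A (adjusted p = 0.0577) or B (adjusted p = 0.0518), and the calls in BT474-Var4 cells and between the variants were each lost in 10 of 15 alternative settings, each of the 6 fits with 1 array less among them, with an adjusted p of up to 0.183 and 0.141.

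MAPK8, which encodes JNK1, has 3 probes, which were unequal in precision. The brightest, A_24_P286898 (chr10:49647005-49647064, plus strand), read -0.07 and -0.10 in Control, -0.01 and 0.02 in BT474-Var1 cells, and 0.00 and -0.05 in BT474-Var4 cells, a spread of about 0.1 over all arrays. It was not called, with log2 changes of 0.10 (95% interval -0.04 to 0.23, adjusted p = 0.225) and 0.06 (95% interval -0.08 to 0.20, adjusted p = 0.438). The probe over the Asp-Phe-Gly codons, A_33_P3250289, read -1.93 and -1.70 in Control, -1.33 and -1.46 in BT474-Var1 cells, and -1.58 and -1.58 in BT474-Var4 cells. Both variants lay above Control, and only BT474-Var1 was called, at 1.34-fold higher (log2 change 0.42, SE 0.10, adjusted p = 0.0352). That call was lost in 11 of 15 alternative settings, each of the 6 fits with 1 array less among them, with an adjusted p of up to 0.142. The dimmest, A_23_P356152 (chr10:49634025-49634084, plus strand), read -1.67 and -2.37 in Control, so that its own replicates were further apart than any group means. Its largest change was -0.45 between the variants (adjusted p = 0.198). That difference was called with normexp (adjusted p = 0.0319), with only the groups compared (0.0217) and without either Control array.

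MAP2K3, the MKK3 kinase that activates p38, has 3 probes. The brightest, A_24_P296698 (chr17:21218464-21218523, plus strand), read 4.43 and 4.46 in Control, 4.11 and 4.17 in BT474-Var1 cells, and 4.51 and 4.44 in BT474-Var4 cells. The BT474-Var1 arrays lay below the other 4. It was 1.23-fold lower in BT474-Var1 than in Control (log2 change -0.30, SE 0.06, adjusted p = 0.0192) and 1.26-fold higher in BT474-Var4 cells than in BT474-Var1 (log2 change 0.33, SE 0.06, adjusted p = 0.0130). When a Control or a BT474-Var1 array was left out, the adjusted p of the fall was 0.0591 to 0.0996, and that of the difference between the variants was 0.0664 without BT474-Var1 replicate A and 0.0561 without BT474-Var4 replicate A. With no filter on dim probes the fall had an adjusted p of 0.12, and the difference between the variants 0.0868. With quantile normalization the fall had an adjusted p of 0.0847. The other MAP2K3 probes were not called in any comparison. A_23_P118427 (chr17:21217988-21218047) ranged from 0.57 to 0.75 and changed by -0.12 in BT474-Var1 cells (adjusted p = 0.157). A_33_P3234571 (chr17:21205459-21205518) ranged from -0.59 to -0.35 and changed by 0.04 (adjusted p = 0.804).

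MAP2K6, the MKK6 kinase that also activates p38, read -0.29 and -0.33 in Control, -0.49 and -0.55 in BT474-Var1 cells, and -0.61 and -0.42 in BT474-Var4 cells on its single probe (chr17:67537962-67538021, plus strand). Both variants lay below Control without overlap, and the shift was equal in the 2 populations at -0.21, but neither passed (BT474-Var1 95% interval -0.44 to 0.01, adjusted p = 0.116; BT474-Var4 95% interval -0.43 to 0.01, adjusted p = 0.141). The variants differed by 0.01 (95% interval -0.21 to 0.23, adjusted p = 0.956).

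The brightest probes of the kinases upstream of JNK were not called. MAP2K7, the MKK7 kinase that is specific for JNK, read 3.84 and 3.83 in Control, 3.87 and 3.83 in BT474-Var1 cells, and 3.76 and 3.80 in BT474-Var4 cells (chr19:7979302-7979361, plus strand). Its log2 changes of 0.01 (95% interval -0.12 to 0.14, adjusted p = 0.874) and -0.06 (95% interval -0.19 to 0.07, adjusted p = 0.437) were the most tightly bounded among the brightest probes of the members. MAP2K4, the MKK4 kinase that acts on JNK and p38, read 4.07 and 4.04 in Control, 4.05 and 4.10 in BT474-Var1 cells, and 4.23 and 4.11 in BT474-Var4 cells on its brighter probe (A_32_P6344, chr17:12046983-12047042, plus strand). Control and BT474-Var1 overlapped, and the changes were 0.02 (adjusted p = 0.839) and 0.12 (adjusted p = 0.245).

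The second MAP2K4 probe, A_33_P3653330 (chr17:12045140-12045199, plus strand), read 2.36 and 2.49 in Control, 2.85 and 2.63 in BT474-Var1 cells, and 2.37 and 2.37 in BT474-Var4 cells. The BT474-Var1 arrays were the high ones, 1.29-fold above BT474-Var4 (log2 change -0.37 for BT474-Var4 against BT474-Var1, SE 0.10, adjusted p = 0.0386). Against Control they were not past the threshold (log2 change 0.32, 95% interval 0.06 to 0.58, adjusted p = 0.0652). That change was called with normexp (adjusted p = 0.00799), quantile normalization (0.0336), a filter on all 6 arrays (0.0425) and trended robust estimation (0.0027). The difference between the variants was lost in 9 of 15 alternative settings, with an adjusted p of up to 0.136, and was kept without BT474-Var1 replicate B and lost without each of the other arrays.

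MAPKAPK2, the MK2 kinase that p38 alpha and beta phosphorylate and that stabilizes cytokine mRNAs, fell in BT474-Var1 cells. Its probe A_23_P201483 (chr1:206906945-206907004, plus strand) read 2.10 and 1.98 in Control, 1.52 and 1.64 in BT474-Var1 cells, and 1.91 and 1.95 in BT474-Var4 cells. BT474-Var1 lay lowest, and BT474-Var4 lay just under Control without overlap. The fall was 1.38-fold against Control (log2 change -0.46, SE 0.07, adjusted p = 0.0134), and BT474-Var4 stood 1.28-fold above BT474-Var1 (log2 change 0.35, SE 0.07, adjusted p = 0.0225). BT474-Var4 against Control was -0.11 (95% interval -0.31 to 0.08, adjusted p = 0.325). With no filter on dim probes the fall in BT474-Var1 missed the threshold (adjusted p = 0.0765). The fall in BT474-Var1 was lost without Control replicate A (adjusted p = 0.081) and without BT474-Var1 replicate A (adjusted p = 0.0654), and the difference between the variants in 6 of 15 alternative settings (adjusted p up to 0.106), among them the fits without BT474-Var1 replicate A (0.0965) and BT474-Var4 replicate A (0.0736) or B (0.0978).

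**Figure D2:**
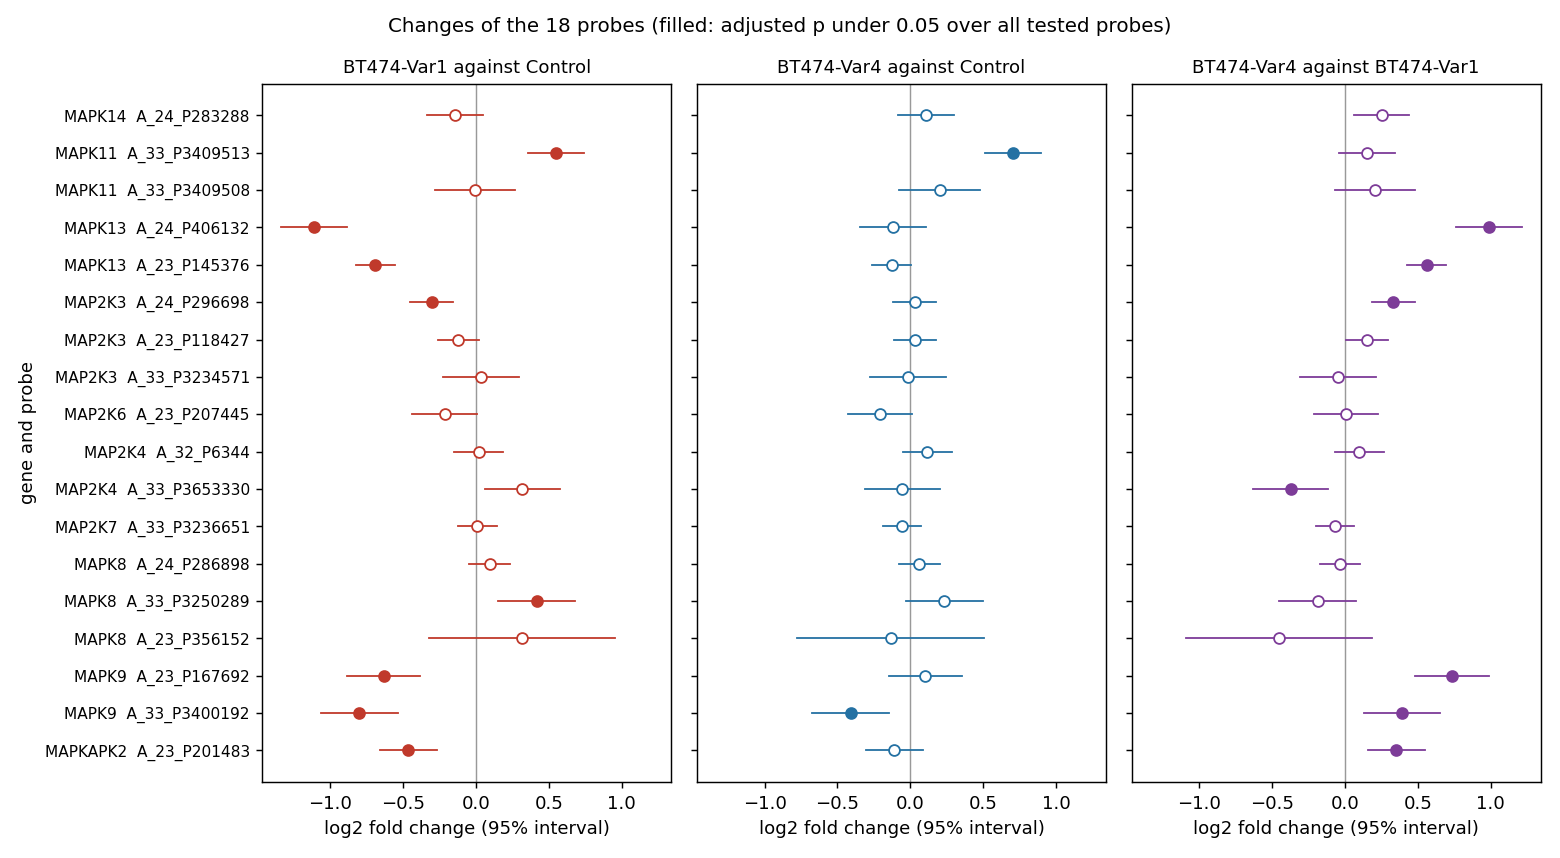
The x axis gives the log2 fold change with its 95% interval for each of the 18 probes (rows) in the 3 comparisons (panels), and filled points have an adjusted p under 0.05 over all tested probes. BT474-Var1 against Control holds 8 filled points, 6 of them left of 0 with MAPK13 A_24_P406132 farthest at -1.11, BT474-Var4 against Control holds 2, and BT474-Var4 against BT474-Var1 holds 7, of which 6 lie right of 0.

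With the brightest probe of each member alone, 1 of 10 genes was higher and 4 lower in BT474-Var1 than in Control, where 14.2% of all genes were higher and 20.7% lower by the same rule of 1 probe per gene. In BT474-Var4 cells, MAPK11 was the 1 member called against Control, against 10.2% of all genes higher and 14.6% lower. BT474-Var4 stood above BT474-Var1 on the brightest probes of MAPK13, MAPK9, MAPKAPK2 and MAP2K3, 4 of 10, where 20.9% of all genes were higher and 21.0% lower.

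The other genes of the pathway were described from 6 lists by role, with the brightest tested probe of each gene, 95 tested of 106 on the array. Together, 26 were higher and 13 lower in BT474-Var1 than in Control, to be read against the shares of all genes just given. The median log2 change was 0.04 against -0.05 for all genes. Of the 26, CXCL8 was well above background in neither group, and 25 were higher without it. In BT474-Var4 cells 31 were higher and 9 lower, with a median of 0.07 against -0.08. Between the variants 21 were higher and 15 lower in BT474-Var4 cells, with a median of 0.04 against -0.03. A gene was tested when it was well above background on both arrays of 1 or more groups, and 5 genes that were dim on other arrays, CXCL8, IL6, MMP1, TNF and MAPK15, entered that way. Over the other 90 genes, 24 were higher and 13 lower in BT474-Var1 and 27 higher and 9 lower in BT474-Var4 cells than in Control. The shares of all genes given above include dim genes. In a fit to probes well above background on all 6 arrays, 27 of 90 were higher and 17 lower in BT474-Var1, where 43.4% of all such probes were called. In BT474-Var4 cells 31 were higher and 12 lower, where 32.6% were called. Up to 4 genes per list are named, those with the largest called changes.

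Of 18 MAP3Ks, the entry kinases of the relay, 1 was higher and 1 lower in BT474-Var1, against 14.2% and 20.7% of all genes. In BT474-Var4 cells 2 were higher and 3 lower, against 10.2% and 14.6%. The medians were -0.01 and -0.04. MAP3K5, the ASK1 kinase that responds to oxidative stress and feeds both p38 and JNK, read 0.26 and 0.23 in Control, 0.37 and 0.35 in BT474-Var1 cells, and 1.19 and 1.20 in BT474-Var4 cells. The BT474-Var4 arrays stood apart, with a 1.93-fold rise over Control (log2 change 0.95, adjusted p = 0.00311) and a 1.78-fold rise over BT474-Var1 (adjusted p = 0.00155). MAP3K10, a mixed lineage kinase, was 2.02-fold lower in BT474-Var4 than in BT474-Var1 (adjusted p = 0.0182), with Control replicates of 0.52 and 1.01. ZAK, which responds to ribosome stalling, was higher in BT474-Var4 cells than in BT474-Var1 (log2 change 0.48, adjusted p = 0.00836), and TAOK2, a kinase that acts on MAP2Ks, was lower (log2 change -0.48, adjusted p = 0.0105). The MAP3K10 difference was lost without BT474-Var1 replicate A (adjusted p = 0.0797) or B (0.0778) or BT474-Var4 replicate A (0.0743), and that of TAOK2 without BT474-Var4 replicate B (0.0568).

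The list of other MAP kinases had 1 of 10 higher and 3 lower in BT474-Var1, against 14.2% and 20.7% of all genes. In BT474-Var4 cells 2 were higher and 1 lower, against 10.2% and 14.6%. The medians were -0.20 and -0.05. MAPK3, which encodes ERK1, rose 1.46-fold in BT474-Var1 cells (log2 change 0.54, adjusted p = 0.00571) and was at 0.18 in BT474-Var4 cells (adjusted p = 0.0837). MAPK10, the JNK3 kinase known mainly from neurons, fell in BT474-Var1 (log2 change -0.21, adjusted p = 0.036) and rose in BT474-Var4 cells (log2 change 0.22, adjusted p = 0.0405), and the variants differed by 0.43 (adjusted p = 0.00532). Of the 3 JNK genes, MAPK9 and MAPK10 thus had called falls in BT474-Var1 cells and MAPK8 a called rise on 1 probe. MAPK7, the ERK5 kinase, fell in BT474-Var1 cells (log2 change -0.37, adjusted p = 0.0139), and its activator MAP2K5 rose in BT474-Var4 cells (log2 change 0.33, adjusted p = 0.0431). The changes of MAPK10 against Control and that of MAP2K5 were lost in each fit with 1 array less (adjusted p up to 0.175), that of MAPK7 without either Control array or BT474-Var1 replicate A (up to 0.0905), and that of MAPK3 without Control replicate A (0.0509).

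Scaffolds and sensors had 5 of 14 genes higher and 1 lower in each population, with medians of -0.01 and 0.20. Of all genes, 14.2% were higher and 20.7% lower in BT474-Var1, and 10.2% and 14.6% in BT474-Var4 cells. MAPK8IP2, the JIP2 scaffold that binds JNK and its upstream kinases, read 0.49 and 0.63 in Control, 1.53 and 1.57 in BT474-Var1 cells, and 1.50 and 1.66 in BT474-Var4 cells. Its rise was 1.98-fold (adjusted p = 0.0047) and 2.02-fold (adjusted p = 0.00577), with 0.03 between the variants (adjusted p = 0.799). GADD45A and GADD45B encode stress sensors that bind the MAP3K MEKK4. GADD45A rose in BT474-Var1 (log2 change 0.55, adjusted p = 0.0174) and in BT474-Var4 cells (log2 change 0.81, adjusted p = 0.0113). GADD45B rose 1.64-fold in BT474-Var1 cells (adjusted p = 0.00351) and was at 0.03 in BT474-Var4 cells (adjusted p = 0.7), and the variants differed by -0.69 (adjusted p = 0.002). MAPK8IP3, the JIP3 scaffold, had log2 changes of 0.50 in BT474-Var1 (adjusted p = 0.00903), -0.20 in BT474-Var4 cells (adjusted p = 0.0935) and -0.70 between the variants (adjusted p = 0.00342). Without Control replicate A, 4 of these calls had an adjusted p of 0.0552 (MAPK8IP2 in BT474-Var4), 0.0898 and 0.071 (GADD45A in BT474-Var1 and BT474-Var4) and 0.0647 (MAPK8IP3 in BT474-Var1). GADD45A was also lost without BT474-Var1 replicate B (0.068) and without BT474-Var4 replicate A (0.0552) or B (0.0619), and MAPK8IP3 without BT474-Var1 replicate A (0.0502).

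Phosphatases that act on MAPKs had 3 of 12 genes higher and 2 lower in BT474-Var1, against 14.2% and 20.7% of all genes. In BT474-Var4 cells 3 were higher and 1 lower, against 10.2% and 14.6%. The medians were 0.08 and 0.10. DUSP1, the immediate-early phosphatase that inactivates p38 and JNK, read 2.12 and 2.08 in Control, 3.46 and 3.53 in BT474-Var1 cells, and 2.56 and 2.53 in BT474-Var4 cells. The 3 groups were wide apart, with a 2.64-fold rise in BT474-Var1 (log2 change 1.40, adjusted p = 0.00233), a 1.37-fold rise in BT474-Var4 (log2 change 0.45, adjusted p = 0.0106) and a difference of -0.95 between the variants (adjusted p = 0.0015). DUSP2 rose in both, by 0.80 (adjusted p = 0.00519) and 1.22 (adjusted p = 0.00373). Its size depended on the setting, with log2 changes as low as 0.44 and 0.69 over the alternatives. The variants differed by 0.42 (adjusted p = 0.0148), a call lost with no filter on dim probes (adjusted p = 0.0776) and in some fits with 1 array less. DUSP10, which prefers p38 and JNK, rose in BT474-Var1 cells (log2 change 0.51, adjusted p = 0.0288) and was at 0.38 in BT474-Var4 cells (adjusted p = 0.073). DUSP4 went down in both, by 1.91-fold in BT474-Var1 cells (adjusted p = 0.00311) and by 1.19-fold in BT474-Var4 cells (adjusted p = 0.0402). The rise of DUSP1 and the fall of DUSP4 in BT474-Var4 cells were lost when a Control or a BT474-Var4 array was left out (adjusted p 0.0517 to 0.183), DUSP4 also without either BT474-Var1 array, the rise of DUSP10 without any array but BT474-Var1 replicate B (up to 0.139), and that of DUSP2 in BT474-Var1 cells without Control replicate A (0.0501).

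Substrates of p38, JNK and MK2 had 5 of 23 genes higher and 5 lower in BT474-Var1, against 14.2% and 20.7% of all genes. In BT474-Var4 cells 8 were higher and 2 lower, against 10.2% and 14.6%. The medians were 0.11 and 0.08. JUN, the AP-1 subunit that JNK phosphorylates, read 2.20 and 1.99 in Control, 3.13 and 3.13 in BT474-Var1 cells, and 2.91 and 2.83 in BT474-Var4 cells. It rose 2.04-fold (adjusted p = 0.00457) and 1.70-fold (adjusted p = 0.00974) and did not differ past the threshold between the variants (log2 change -0.26, adjusted p = 0.0727). JUND, another AP-1 subunit, rose in BT474-Var1 (log2 change 0.73, adjusted p = 0.00486), was at -0.13 in BT474-Var4 cells (adjusted p = 0.214) and differed between them by -0.86 (adjusted p = 0.00236). ZFP36, the mRNA decay factor that MK2 phosphorylates, rose by 0.84 (adjusted p = 0.00311) and 0.32 (adjusted p = 0.018), with -0.52 between the variants (adjusted p = 0.00343). DDIT3, the CHOP factor that p38 phosphorylates, was the higher in BT474-Var4 cells, at 0.18 in BT474-Var1 cells (adjusted p = 0.0518) and at 0.81 in BT474-Var4 cells (adjusted p = 0.0038), with a difference of 0.63 (adjusted p = 0.00263). Without BT474-Var4 replicate B the rise of JUN there had an adjusted p of 0.0516, and the rise of ZFP36 in BT474-Var4 cells was lost without any array but BT474-Var1 replicate B (up to 0.0989).

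**Figure D3:**
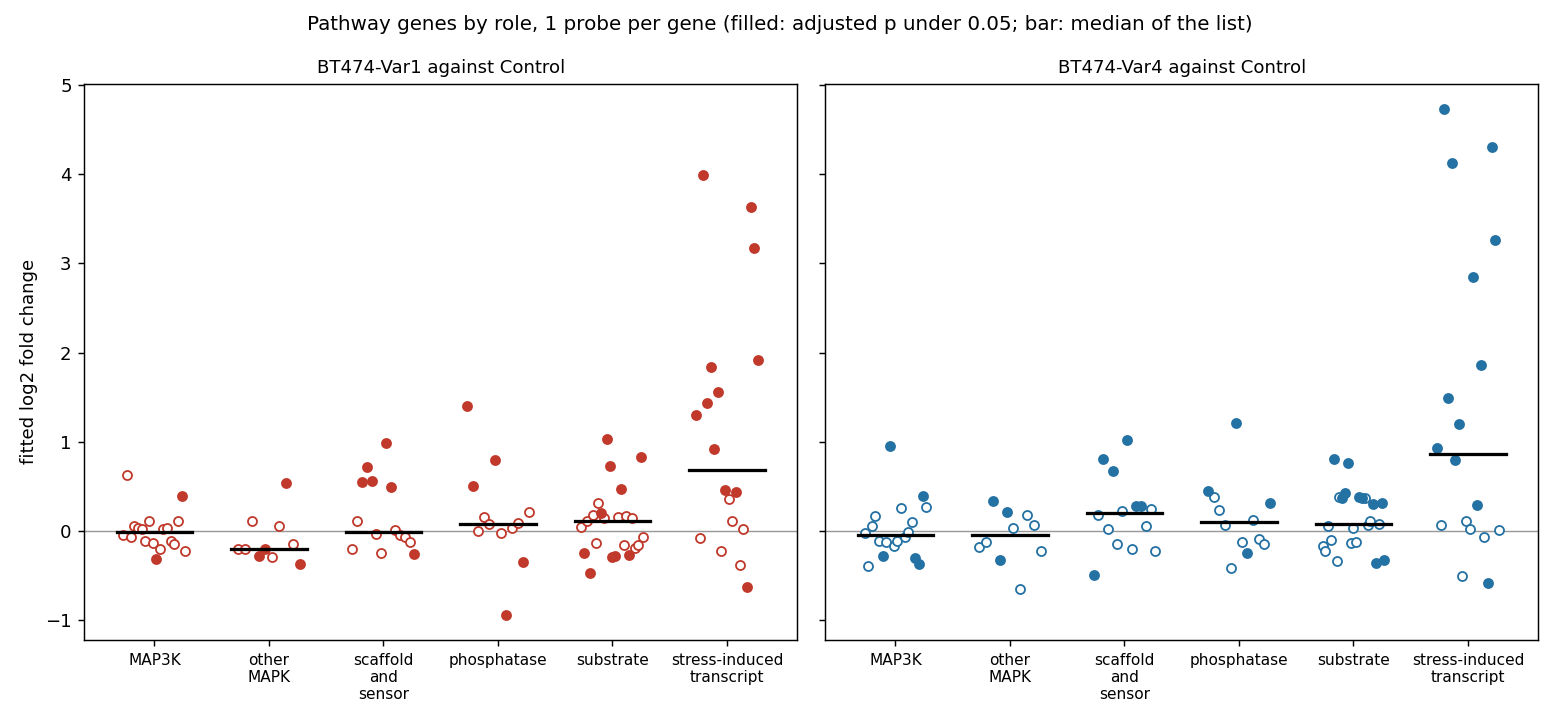
The y axis gives the fitted log2 fold change against Control of 1 probe per gene, grouped on the x axis by the gene's role, for BT474-Var1 (left) and BT474-Var4 cells (right); filled points have an adjusted p under 0.05 and bars are the medians of each list. The medians of the other 5 lists lie between -0.20 and 0.20, and those of the 18 stress-induced transcripts at 0.69 and 0.86, the latter being 0.20 without TNF, CXCL8, IL6 and MMP1, whose fitted values rest on arrays where the probe was not well above background.

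The last list holds transcripts that p38 and JNK signaling is known to induce. Of 24 genes on the array, 14 were well above background on all 6 arrays. Among these, 9 were higher and 1 lower in BT474-Var1 than in Control, with a median log2 change of 0.69. In BT474-Var4 cells 7 were higher and 1 lower, with a median of 0.20. Over all tested genes, dim ones included, 14.2% were higher and 20.7% lower in BT474-Var1, and 10.2% and 14.6% in BT474-Var4 cells. A further 4, TNF, CXCL8, IL6 and MMP1, were tested only because they were well above background in 1 group or more, so that counts with them are no measure of the list. With them, 11 of 18 were higher and 1 lower in each population, and the median in BT474-Var4 cells was 0.86. In BT474-Var1 cells 1 of the 11, CXCL8, was well above background in neither that group nor Control, and 10 were higher without it. Many of these genes also respond to NF-kB signaling, and the list is not specific to p38 or JNK.

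CXCL1, a neutrophil chemokine, read -3.62 and -3.26 in Control, 0.54 and 0.56 in BT474-Var1 cells, and 1.42 and 1.17 in BT474-Var4 cells. It rose 15.8-fold (adjusted p = 0.00233) and 26.6-fold (adjusted p = 0.00203). The size rested on the background correction: with normexp, which here adds an offset of 50 to every intensity, the log2 changes were 1.63 and 2.19 in place of 3.99 and 4.73. TNF, whose mRNA is a known target of MK2 signaling, was too dim on both Control arrays to pass background, and against that limit BT474-Var1 cells stood at least 9.49-fold higher (adjusted p = 0.0034) and BT474-Var4 cells at least 15.1-fold higher (adjusted p = 0.00333). Such bounds set each dim array at the higher of its own value and the dimmest well-above-background signal of that array, and they hold for the processed signal only: with normexp the log2 changes of TNF were 0.79 and 1.09, under both bounds. CXCL8, which encodes interleukin 8, was well above background in BT474-Var4 cells alone, at least 4.3-fold above Control (adjusted p = 0.00203) and at least 3.36-fold above BT474-Var1 cells (adjusted p = 0.00166), and with normexp its log2 changes were 0.46 and 0.27, again under the bounds. TNFAIP3, the A20 brake on NF-kB, rose 8.98-fold (adjusted p = 0.00154) and 9.62-fold (adjusted p = 0.00202), with 0.10 between the variants (adjusted p = 0.335). With normexp the rises were 1.16 and 1.21 on the log2 scale, against 3.17 and 3.27. The calls against Control of CXCL1, TNF, CXCL8 and TNFAIP3 just given were kept with normexp. TNF and CXCL8 were tested only because they were well above background in groups where they were high, so their calls are a description.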

How the data were processed

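RNA of the 3 cell populations was hybridized to 6 one-color Agilent arrays. The deposited intensity values are the authors' scanner output, made with Feature Extraction 11.5.1.1 per the submitters' processing notes, with the background subtracted and each array detrended. The authors' normalized table holds log2 values after a shift to each array's 75th percentile. Here, the log2 of the processed intensity less that percentile of the non-control probes was used. Outlier spots, 63 to 128 per array, were left out, spots of a probe were averaged, and 31858 probes were tested, those that the software had marked well above background on each array of 1 or more groups. limma 3.58.1 in R 4.3.3 fitted 1 mean per group to all arrays, and p-values were adjusted by Benjamini-Hochberg over all tested probes. The number of arrays limits the precision. The fit was tested on simulated data.

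The members and the pathway lists were chosen with earlier results of these data known. Values per array are given for called member probes and the brightest probe of each member. From each list up to 4 called genes with the largest absolute change over the comparisons are named. The 5 probes of other named genes most like that of the member with the widest range of group means are named too. Sequences and hg19 positions come from the array files; 1 probe's sequence is not reported here. The alternatives were normexp background correction (offset 50), quantile normalization, the authors' table, no dim-probe filter or one that asked for all 6 arrays, a block for the replicate letter, trended robust estimation, the one-way analysis of variance of the methods, only the groups compared, the mean over a gene's probes for the lists, and each array left out. The array design number differs between the methods and the file headers, and the files were used.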

Additional observations from a re-analysis of the deposited data

How the results depend on the processing

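The counts of called member probes, 8 in BT474-Var1 against Control, 2 in BT474-Var4 against Control and 7 between the variants, depended on the setting more than the direction of any call, which was reversed under none of the alternatives run. Both MAPK13 probes kept their calls in BT474-Var1 against Control and between the variants under every alternative run. Without a filter on dim probes limma's counts were 3, 0 and 3 (2 in BT474-Var4 against Control at an unadjusted p under 0.05), and 19, 11 and 13 for the pathway genes (39, 40 and 36 in the report); the share of all probes called fell as well, to 4.61%, 1.24% and 8.8%. Quantile normalization left 1 member probe in BT474-Var4 against Control, where 21.4% of all probes were called, against 24.2% in the report. normexp gave 11 member probes and 60 pathway genes between the variants, with 57.6% of all probes called. Trended robust estimation gave 55 pathway genes there, with 49.5% of all probes called, against 41.2% in the report. The methods' one-way analysis of variance gave 1 and 4 member probes in BT474-Var4 against Control and between the variants. The shares of all probes called were then 16.3% and 31.3%. With each array left out in turn, the member counts ranged from 2 to 7, from 0 to 1 and from 3 to 6 (the 0 arose in limma without Control replicate A or B, where 2 and 3 probes had an unadjusted p under 0.05), and the pathway counts from 17 to 34, from 11 to 26 and from 21 to 32; a group left with 1 array was assumed to vary like the others. The share of all probes called was lower in every fit with 1 array less than with all 6 arrays. The cause of these moves was not tested.

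The replicate letters showed no shared deviation: the A minus B deviations of the groups correlated at -0.012, 0.045 and -0.015. Whether the letters pair arrays by design was not stated. With the letter as a replicate block, member counts were 1 in BT474-Var4 against Control and 4 between the variants. The pathway count was 25 in BT474-Var4 against Control. The shares of all probes called in these 2 comparisons were 15.4% and 35%. Of the recomputed values of the 24 named pathway genes and MAPK12, 105 lost a call, 43 gained one and none with a call in either setting changed direction. Single member probes that lost their calls most often were MAPK8 A_33_P3250289 in BT474-Var1 against Control, in 11 of 15 settings (adjusted p up to 0.142), and MAPK9 A_33_P3400192 in BT474-Var4 against Control (up to 0.183) and between the variants (up to 0.141), each in 10 of 15. Among the called changes that normexp moved by over 1.5 times were those of CXCL1, TNF, CXCL8 and TNFAIP3 whose normexp values the report gives. Sizes of other calls moved too. Over the alternatives, the log2 rise of MAPK8 A_33_P3250289 (BT474-Var1 against Control) was as low as 0.20, where the main fit gave 0.42. For DUSP2 against Control the lows were 0.44 (BT474-Var1) and 0.69 (BT474-Var4), where the main fit gave 0.80 and 1.22. With no filter on dim probes the fall of MAPK9 A_23_P167692 in BT474-Var1 against Control was lost (adjusted p = 0.062). That setting also lost calls of named pathway genes, among them JUN (0.0638), ZFP36 (0.129), DUSP1 (0.0859) and DUSP4 (0.208) in BT474-Var4 against Control. GADD45A was lost in BT474-Var1 (0.0798) and BT474-Var4 (0.0671), and MAPK8IP3 (0.0611) and MAPK7 (0.0887) in BT474-Var1. Between the variants ZAK (0.0541) and MAP3K10 (0.0656) were lost. The calls of DUSP1, JUN, JUND, ZFP36 and GADD45B in BT474-Var1 against Control were kept in every setting. MAPK9 A_23_P167692 in BT474-Var1 against Control was lost without Control replicate A (0.0744) and BT474-Var1 replicate B (0.0529), while its difference between the variants was kept throughout. MAPK14 between the variants ranged from an adjusted p of 0.0128 to 0.192.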

Other observations

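The probes whose levels over the 6 arrays were most like those of MAPK13 A_24_P406132, the member probe with the widest range of group means among the brightest, belonged to LTBP1 (Pearson r = 0.9999), DNER (r = 0.9989), GABPB1 (r = 0.9986), LINC01128 (r = 0.9986) and USP22 (r = 0.9982). LTBP1 encodes a binding protein of latent TGF-beta and DNER a neuronal transmembrane protein of the Notch pathway. They were ranked among tested probes of other named genes, leaving out names that were only accession or locus identifiers and probes with a missing value. These are the highest of that set over 6 arrays in 3 groups, which share their arrays, and are given as a description. The ranges of their group means were 1.11, 2.90, 0.34, 0.61 and 0.55 log2 units, against 1.11 for MAPK13.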
